A study of Mus musculus with 2 samples.

Results

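Dendritic cells take up antigen, sense microbes and instruct T cells, and they arise in the bone marrow in a plasmacytoid and a conventional branch. Plasmacytoid dendritic cells sense nucleic acids through endosomal Toll-like receptors and release type I interferon, and their identity depends on the E protein transcription factor encoded by Tcf4. Conventional dendritic cells present antigen to T cells and, like plasmacytoid cells, depend on the receptor Flt3. One of their lineages cross-presents antigen, carries the chemokine receptor Xcr1 and needs the transcription factor Batf3, and the other carries lectins such as Cd209a in the mouse. A rule naming 8 genes by symbol chose the genes described below, and 6 of them, in a table of 12860 genes, were analysed. They were the plasmacytoid genes Siglech, Ccr9 and Tcf4, the lectin genes Cd209a and Cd209d, which were placed in neither class, and the conventional gene Itgax. Xcr1 and Batf3 were not analysed here, so the conventional class of the rule rests on 1 gene of 3.

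RNA of unsorted whole bone marrow was sequenced from 1 mouse with the Srsf2 P95H change on 1 allele (P95H KI/+) and from 1 Srsf2 WT mouse, both on a C57BL/6 background. Srsf2 encodes a splicing factor, and the P95H substitution recurs in human myeloid neoplasms. The titles give both mice the R26CreERT2 allele, a tamoxifen-dependent Cre recombinase made from the ubiquitously active Rosa26 locus, and in vivo tamoxifen, so the WT mouse shared driver and drug. The P95H mouse was a 14-week-old female and the WT mouse a 12-week-old male, and genotype cannot be told apart from sex, age or individual. With 1 library per group no difference has a replicate check, no test was possible, and no p-value is given. Counts summed to 42366695 (P95H) and 44733445 (WT). Levels are the deposited CPM, read counts scaled to a library size set by the authors. A difference is log2(CPM + 1) in P95H minus the same in WT. This scale shrinks the differences of low genes. Every gene had a CPM of at least 1 in 1 library. A gene under 1 CPM in the other library therefore had its direction fixed by that cut. A gene is called lower or higher where that difference reaches 2-fold, 1 log2 unit in size. Brackets hold 95% counting intervals, which cover counting error only and not the spread between mice. The share of higher genes among all genes past 2-fold was 45.6%, and 23.0% when plain totals of the listed counts set the scale.

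Each of the 6 genes had a lower level in the P95H library, 5 of them by more than counting error. Siglech and Cd209a, 2 of 6, were called lower, where 2.1% of all genes were, and 0 of 6 were called higher, where 1.76% of all genes were. The other 4 were not called. The median difference of the 6 genes was -0.80, and that of all genes 0.00 to 2 decimals. Those 5, all but Cd209d, had counting intervals of the ratio of CPM wholly under 1, as 32.8% of all genes did, so at this depth a lower ratio as such is common. Siglech and Cd209a had intervals wholly under a ratio of 0.5, as did 2.31% of all genes. In bulk marrow, fewer cells of a type and less RNA per cell cannot be told apart.

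**Figure D1:**
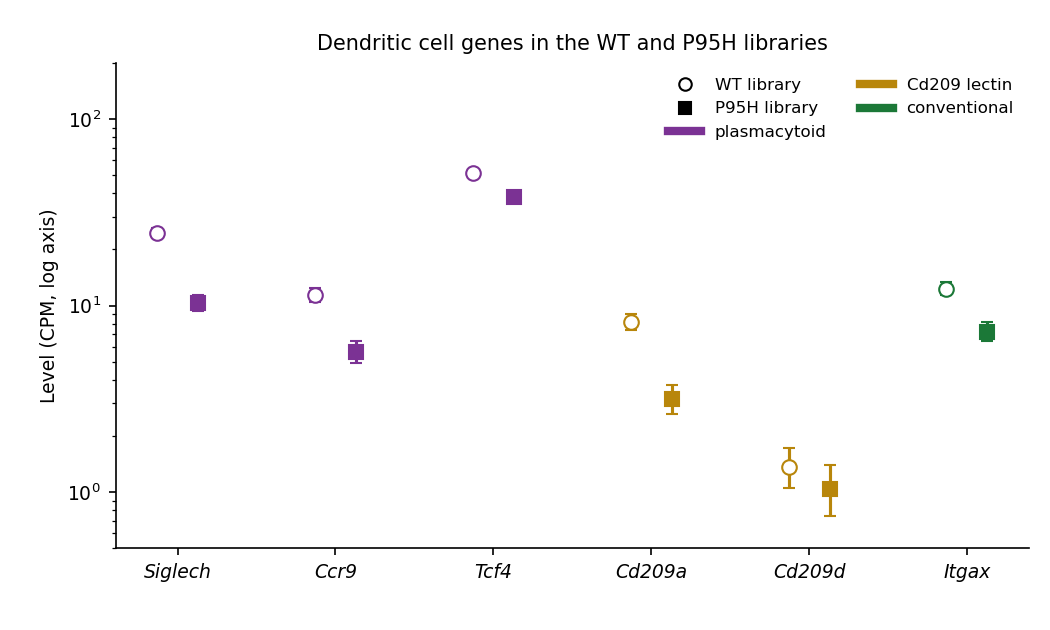
Level of each gene in CPM on a log axis, in the WT library (open circles) and the P95H library (filled squares), with exact Poisson 95% counting intervals and colours for the class. Each square lies below its circle, and the 2 intervals overlap for Cd209d, at 1.36 and 1.03 CPM.

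Siglech encodes a sialic acid binding lectin of the plasmacytoid dendritic cell surface that signals through the adaptor DAP12. It had 411 counts, 10.4 CPM (9.38 to 11.4), in P95H marrow and 1174 counts, 24.5 CPM (23.1 to 26.0), in WT marrow. The ratio was 0.422 (0.376 to 0.473), P95H over WT, with the difference at -1.17, and 1.38% of all genes had a lower difference. Ccr9 encodes the receptor for the chemokine Ccl25, which thymocytes and gut-homing T cells also carry. It had 224 counts, 5.64 CPM (4.93 to 6.43), against 547 counts, 11.4 CPM (10.5 to 12.4). Its ratio was 0.494 (0.421 to 0.578) and its difference -0.90, so that it missed the 2-fold size on the log2(CPM + 1) scale while its ratio of CPM did not. With a pseudocount of 0.1 CPM the difference of Ccr9 just reached 2-fold, and with plain totals it was -1.06.

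Tcf4 had 1511 counts, 38.1 CPM (36.2 to 40.0), in P95H marrow and 2467 counts, 51.5 CPM (49.5 to 53.6), in WT marrow. Its ratio was 0.739 (0.692 to 0.788) and its difference -0.43, the nearest to 0 among the plasmacytoid genes. B lineage cells also transcribe Tcf4, as do many non-blood cells, so its total is not that of plasmacytoid cells alone. Relative to Tcf4, both Siglech and Ccr9 were lower by more than counting error. The count ratio of Siglech to Tcf4 was 0.272 in P95H and 0.476 in WT, a ratio of ratios of 0.572 (0.501 to 0.652) that no choice of scaling can change. That of Ccr9 to Tcf4 was 0.669 (0.562 to 0.793), and that of Siglech to Ccr9 0.855 (0.703 to 1.04), an interval that includes 1.

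Cd209a and Cd209d belong to the mouse relatives of human DC-SIGN, C-type lectins that bind sugars of microbes. Cd209a had 125 counts, 3.15 CPM (2.62 to 3.75), against 390 counts, 8.15 CPM (7.36 to 9.00), with the lowest ratio of the 6 genes, 0.387 (0.313 to 0.474), and a difference of -1.14. Cd209d had 41 counts, 1.03 CPM (0.741 to 1.40), against 65 counts, 1.36 CPM (1.05 to 1.73). Its ratio of 0.761 (0.502 to 1.14) includes 1, so a difference in Cd209d was not detectable at this depth. Cd209a gave 3.05 counts per count of Cd209d in P95H and 6.00 in WT, a ratio of ratios of 0.508 (0.321 to 0.812). A further member of the family, Cd209f, lay the other way, at 51 counts against 17, a ratio of 3.62 (2.06 to 6.68) with the difference at 0.75. Its levels were 1.28 CPM in P95H and 0.355 CPM in WT. It thus passed the 1 CPM cut through the P95H library alone, which fixed its direction.

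Itgax encodes CD11c, the integrin alpha chain by which conventional dendritic cells are usually recognised, which macrophages, natural killer cells and some B cells also carry. It had 288 counts, 7.26 CPM (6.44 to 8.14), in P95H marrow and 590 counts, 12.3 CPM (11.3 to 13.4), in WT marrow. Its ratio was 0.589 (0.510 to 0.679) and its difference -0.69, between the plasmacytoid genes Ccr9 and Tcf4.

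Upstream sequences of 4 of these genes are shown because the protein that Tcf4 encodes binds E boxes, and they let a reader see where such letters stand. They are the RefSeq windows on build GRCm38.p6 from 250 bases before to 50 bases after the gene start, printed on the gene's strand from 5′ to 3′, with E boxes in capitals. Siglech and Ccr9 stand for the plasmacytoid genes, and Cd209a and Itgax for the lectin and conventional genes.
Siglech (chr7:55767934-55768233, + strand): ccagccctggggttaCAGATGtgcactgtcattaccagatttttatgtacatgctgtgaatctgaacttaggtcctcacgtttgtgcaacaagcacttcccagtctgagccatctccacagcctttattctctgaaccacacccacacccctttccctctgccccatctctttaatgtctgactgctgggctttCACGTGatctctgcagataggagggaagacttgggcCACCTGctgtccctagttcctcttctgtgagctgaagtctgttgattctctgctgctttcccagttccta
Ccr9 (chr9:123766961-123767260, + strand): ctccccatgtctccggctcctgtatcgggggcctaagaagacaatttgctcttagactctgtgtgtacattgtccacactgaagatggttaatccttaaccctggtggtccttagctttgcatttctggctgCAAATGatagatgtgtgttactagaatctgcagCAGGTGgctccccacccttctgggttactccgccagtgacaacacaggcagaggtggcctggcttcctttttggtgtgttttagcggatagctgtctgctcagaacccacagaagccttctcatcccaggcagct
Cd209a (chr8:3748935-3749234, - strand): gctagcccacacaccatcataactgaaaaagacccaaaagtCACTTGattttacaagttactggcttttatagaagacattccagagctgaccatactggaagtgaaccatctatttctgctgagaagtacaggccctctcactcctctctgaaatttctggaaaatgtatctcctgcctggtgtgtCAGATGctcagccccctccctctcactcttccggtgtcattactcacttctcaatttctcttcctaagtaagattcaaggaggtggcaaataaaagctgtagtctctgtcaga
Itgax (chr7:128129300-128129599, + strand): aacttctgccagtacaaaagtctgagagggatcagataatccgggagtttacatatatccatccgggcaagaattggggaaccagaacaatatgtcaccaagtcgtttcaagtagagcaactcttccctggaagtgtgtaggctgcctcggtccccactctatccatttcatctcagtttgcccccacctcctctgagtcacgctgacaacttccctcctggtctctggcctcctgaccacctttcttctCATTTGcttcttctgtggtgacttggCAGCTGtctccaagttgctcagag
The E box searched was CANNTG, which reads the same on both strands, and no 2 matches overlapped. Siglech held 3, Ccr9 2, Cd209a 2 and Itgax 2, where 72.3% of 32851 promoters of the same length held at least 1, 39.6% at least 2 and 17.6% at least 3. The E box CACCTG, read as CAGGTG on the other strand, was matched once in Siglech and once in Ccr9 and in 20.2% of all promoters. Itgax held 1 CAGCTG, as 16.3% of promoters did. The core GGAAGT, or ACTTCC on the other strand, which the related factors PU.1 and Spi-B bind, was matched once in Siglech, once in Cd209a and 2 times in Itgax, and in 23.8% of all promoters. A match describes these letters and is not a site of binding.

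Relative to the conventional gene Itgax, the plasmacytoid genes did not share a direction beyond counting error, with Siglech lower and Tcf4 higher. The median difference of the plasmacytoid genes was -0.90, that of Ccr9, and Itgax was at -0.69, a gap of -0.21. Siglech gave 1.43 counts per count of Itgax in P95H and 1.99 in WT, a ratio of ratios of 0.717 (0.597 to 0.863). Ccr9 relative to Itgax had a ratio of ratios of 0.839 (0.676 to 1.04), which includes 1. Tcf4 lay on the other side, with 5.25 counts per count of Itgax against 4.18, a ratio of ratios of 1.25 (1.07 to 1.47). Summed over the class, which Tcf4 dominates, the plasmacytoid genes held 2146 counts against 4188, and relative to Itgax their ratio of ratios was 1.05 (0.901 to 1.22), so the direction of the class comparison changed with the summary used. Cd209a relative to Itgax was at 0.657 (0.509 to 0.845) and Cd209d at 1.29 (0.830 to 1.99). Of the 10 pairs of members computed, 6 had intervals that leave out 1.

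The fixed marker genes gave classes of more even size. The plasmacytoid markers Siglech, Ccr9, Klk1, Cox6a2, Pacsin1 and Cd300c all lay below 0, with 1 of 6 called lower and a median difference of -0.62. Cox6a2, a heart and muscle isoform of a cytochrome oxidase subunit that plasmacytoid cells also make, had 97 counts against 220 (ratio 0.532, 0.414 to 0.678). Cd300c, a surface receptor gene, had 35 against 83 (0.509, 0.332 to 0.764), and Pacsin1, of membrane trafficking, 89 against 179 (0.600, 0.460 to 0.778). Cd300c was at 0.882 CPM in P95H, so its direction was fixed by the 1 CPM cut. Klk1, a kallikrein protease gene, had 58 against 76, with an interval that includes 1 (0.921, 0.643 to 1.31). Of the 7 conventional markers analysed, 5 lay below 0 and 1 was called lower. Their median was -0.60, the value of Flt3, on which both branches depend. The medians of both classes differed by -0.02, a gap that thus rests on a gene that does not separate them. Zbtb46, a transcription factor of conventional dendritic cells, had 109 counts against 234 (0.562, 0.443 to 0.708), and Itgax relative to it gave a ratio of ratios of 1.05 (0.796 to 1.38). Flt3 had 472 against 888 (0.641, 0.572 to 0.718), and Clec9a, a receptor of the cross-presenting lineage for dead cells, 26 against 59 (0.532, 0.322 to 0.857). Clec9a was at 0.655 CPM in P95H, so the same cut fixed its direction. The lectin genes Mgl2 and Clec10a of the other lineage, which macrophages share, lay above 0, with 832 counts against 570 (1.76, 1.58 to 1.96) and 177 against 173 (1.23, 0.995 to 1.53), while Cd209a of the same marker set had the lowest ratio.

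**Figure D2:**
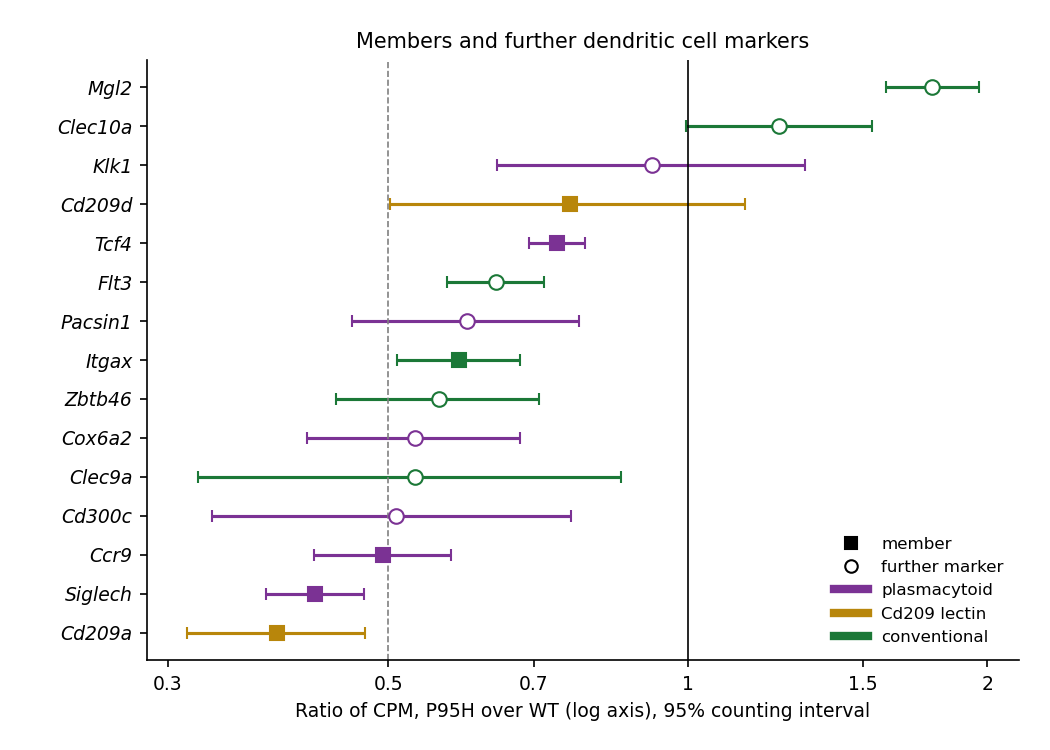
Ratio of CPM, P95H over WT, on a log axis with 95% counting intervals, for the 6 genes of the rule (filled squares) and 9 further marker genes (open circles), in order of the ratio. Plasmacytoid and conventional colours are mixed along the order, from Cd209a at 0.387 to Mgl2 at 1.76.

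The wider lists of each branch, which leave out the members but include the further markers above, held genes on both sides of 0, except that of the genes shared by conventional dendritic cells. Of 20 plasmacytoid genes, 2 were called lower and 0 higher, and 18 were not called. Of the 20, 13 lay below 0 and the others above it, and their median difference was -0.34. The 2 called were Spib, a transcription factor gene, at 1695 counts against 6217 (difference -1.58), and Ly6d, a surface antigen gene, at 1234 against 4512 (-1.57), both of which B lineage cells also transcribe. Irf7, the master regulator of type I interferon genes, was 1 of several genes of that list above 0 and had its highest difference, with 2126 against 1295 (0.96). Irf7 is itself induced by interferon, and 14 of 15 listed interferon-induced genes also lay above 0, with 4 called higher, 0 lower and their median at 0.60. Among those 14, Mx1 and Stat2 lay below 0 with plain totals. Ifi44, at 0.877 CPM in WT, had its direction fixed by the 1 CPM cut. The summed level of that list was 952 CPM against 746 CPM, and its part in the Irf7 value was not tested. Of 7 genes shared by conventional dendritic cells, 2 were called lower and 5 were not, and all lay below 0 (median -0.67). The called genes were Ccr7, which guides dendritic cells and lymphocytes to lymph nodes, at 524 against 3286 (-2.29), and the inhibitory receptor gene Btla at 414 against 1190 (-1.18). B cells also transcribe both, so their totals are not those of dendritic cells alone. The peptidase gene Dpp4 was at -0.98 and Kmo, an enzyme of tryptophan breakdown, at -0.67. Of 10 genes of the cross-presenting lineage, 0 were called in either direction, and the median was -0.28, with Naaa at 0.73, Rab7b at 0.63, Snx22 at -0.59 and Cd8a at -0.55. Of 8 genes of the Cd209a lineage, 1 was called lower, Irf4 at 2623 counts against 9884 (-1.63), which B and plasma cells also transcribe. The other 7 were not called, with Mgl2 at 0.77, Notch2 at 0.42 and Klf4 at -0.42.

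Genes that act with the members were followed by role. The other E protein genes also had ratios under 1, 0.651 (0.623 to 0.680) for Tcf3 and 0.703 (0.666 to 0.742) for Tcf12. Tcf4 relative to Tcf3 gave a ratio of ratios of 1.14 (1.05 to 1.23), which leaves out 1, and relative to Tcf12 1.05 (0.966 to 1.14), which includes it. Id2, which encodes an inhibitor of E proteins that conventional dendritic cells need, lay above 0 with 2787 counts against 2341 (ratio 1.44, 1.36 to 1.52). Tcf4 gave 0.542 counts per count of Id2 in P95H and 1.05 in WT, a ratio of ratios of 0.514 (0.472 to 0.560). Id1 was at 0.80 and Id3 at -0.19. Irf8, a transcription factor of both branches and of B cells, had 3349 counts against 6568 (0.615, 0.590 to 0.641), and Zeb2, Cbfa2t3, Spi1, Nfil3 and Bcl6 were at -0.33, -0.34, 0.66, 0.64 and 0.27. The transcription factor genes Ikzf1 and Batf were at 0.10 and 0.02. The growth factor receptor genes Csf2ra, Csf2rb and Csf1r were at 0.58, 1.18 and 0.33. Of 17 regulators, 0 were called lower and 1 (Csf2rb) higher, 16 were not called, and the median of 0.10 was -0.10 with plain totals.

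A list of 9 genes held partners of the members' proteins along with related adaptors and integrin alpha chains, which other marrow cells share. Of these, 0 were called in either direction and 2 lay below 0. Their median difference was 0.59, that of Itgal, an alpha chain related to CD11c and not its partner. Tyrobp, which encodes DAP12, had 21282 counts against 16700 (ratio 1.54, 1.51 to 1.57), and Itgb2, the beta chain that pairs with CD11c, 48900 against 35777 (1.65, 1.63 to 1.67). Itgam, the CD11b gene next to Itgax among the measured genes in the RefSeq order, had 59710 against 40123 (1.79, 1.77 to 1.82). Itgax relative to Itgam gave a ratio of ratios of 0.328 (0.284 to 0.379). Itgad, the other such neighbour of Itgax, had 169 against 188 (1.08, 0.876 to 1.34), with Itgax relative to it at 0.543 (0.419 to 0.704). Itgal, the alpha chain of the related integrin LFA-1, was at 0.59, and Hcst, which encodes the adaptor DAP10, at 1.00, just short of the 2-fold size. The AP-1 genes Jun, Junb and Jund, whose proteins pair with Batf factors, were at 0.27, -0.04 and -0.08. Of 4 ligand genes, 0 were called in either direction, 3 lay below 0, and the median was -0.31. Ccl25, the ligand of Ccr9, had 73 counts against 62, and Xcl1, the ligand of Xcr1 that natural killer and T cells make, 74 against 215 (0.415, 0.314 to 0.543). Flt3l, the ligand of Flt3, had 261 against 386 (0.816, 0.694 to 0.957), and Csf2, which encodes the growth factor GM-CSF, 22 against 48 (0.553, 0.318 to 0.934). Csf2 was at 0.554 CPM in P95H, so its direction was fixed by the 1 CPM cut.

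Other marrow cells share several of these genes, and their lists differed too. All 12 genes of the B cell list were called lower, with their median at -1.76 and a summed level of 201 CPM against 704 CPM. All 9 natural killer cell genes lay below 0, with 7 called lower, their median at -1.26 and 8.21 CPM against 33.6 CPM. Most of these directions were fixed by the 1 CPM cut, since Ncr1, Klrb1c, Prf1, Eomes, Klre1, Klra8 and Tbx21 were under 1 CPM in P95H. Of 11 T cell genes, 1 was called lower and all lay below 0, with their median at -0.42 and 30.2 CPM against 50.4 CPM. The cut likewise fixed the direction of Cd3e, Cd8b1 and Themis. The MHC class II list, shared by dendritic and B cells, had 8 of 10 genes called lower and its median at -1.71. The monocyte and macrophage list had 1 of 13 genes called higher, Cd14, a median of 0.11 that was -0.08 with plain totals, and 1746 CPM against 1076 CPM. The neutrophil list had 5 of 12 called higher, a median of 0.97 and 108503 CPM against 55873 CPM. The erythroid list had 2 of 11 called lower (median -0.59), and the megakaryocyte list 0 of 6 (median -0.30). Markers of each of these marrow cell types were present in both libraries, and 0 of them had 0 counts. Since each had passed the 1 CPM cut in 1 library, that outcome was likely beforehand. The part of these lists in the members' values was not tested.

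Ccr9 relative to the T cell gene Cd3e (39 counts against 79) gave a ratio of ratios of 0.830 (0.540 to 1.29), an interval that includes 1. With the listed neutrophil genes left out of plain totals, the median difference of all genes shifted by -0.11 from the deposited scaling. Plain totals with these genes kept gave a shift of -0.17, so leaving them out moved genes upward from plain totals. The members were at -1.28 (Siglech) to -0.28 (Cd209d), against -1.34 and -0.31 with plain totals. Both totals move every gene downward from the deposited scaling, so neither could have put a member above 0.

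**Figure D3:**
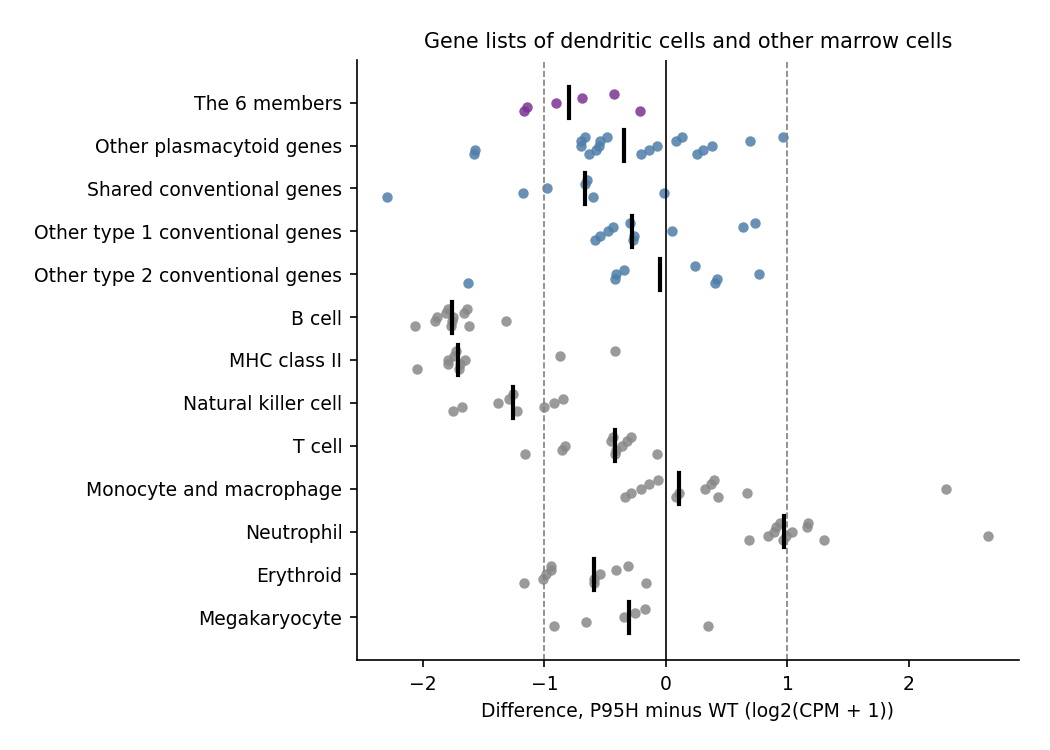
Difference of each gene in log2(CPM + 1), P95H minus WT, for the 6 genes of the rule, 4 further dendritic cell lists and 8 lists of other marrow cells, with a black bar at each list's median and dashed lines at 2-fold. The 6 genes (median -0.80) lie between the B cell list (-1.76) and the neutrophil list (0.97).

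Levels were compared between genes per kilobase of the longest protein-coding transcript in GENCODE vM21, since the gene models behind the counts are not given in the sources used here. In the WT library the order was Siglech at 10.7 CPM per kilobase (10.1 to 11.3), Tcf4 at 6.01 (5.77 to 6.25), Cd209a at 5.50 (4.96 to 6.07), Itgax at 3.05 (2.80 to 3.30), Ccr9 at 2.20 (2.02 to 2.39) and Cd209d at 1.48 (1.14 to 1.88). The intervals of Tcf4 and Cd209a overlapped, and those of the other neighbours in this order did not. In the P95H library Siglech at 4.50 (4.08 to 4.96) and Tcf4 at 4.44 (4.22 to 4.67) overlapped, as did Cd209a at 2.12 (1.77 to 2.53) and Itgax at 1.79 (1.59 to 2.01), and Cd209d at 1.12 (0.807 to 1.52) and Ccr9 at 1.09 (0.948 to 1.24).

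Sequence shared with another annotated gene touched 2 of the 6 genes. Of the windows of 75 bases, the read length, in the GENCODE transcripts of Siglech, Tcf4, Cd209a and Cd209d, 0 also stood in a transcript of another gene, so the Cd209 relatives can be told apart at that length. For Itgax 5.01% of windows were shared with Itgad, and for Ccr9 19.4% with 2 other annotated transcripts that overlap it, 1 of them on the opposite strand, so its count is less certain.

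**Figure D4:**
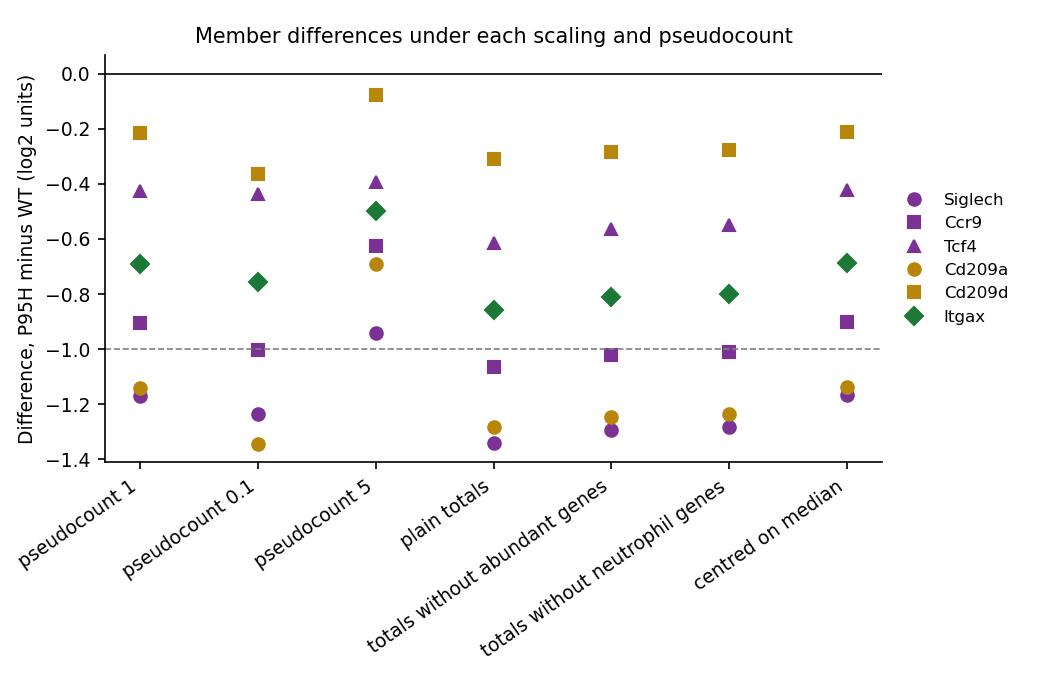
Difference of each gene, P95H minus WT in log2 units, with the deposited CPM and a pseudocount of 1 (first column) and under 6 other scalings and pseudocounts, with a dashed line at 2-fold. Siglech ranges from -1.34 to -0.94 and Cd209d from -0.36 to -0.08. The points could not cross 0, since a pseudocount leaves the sign as it is and the other totals move every gene downward.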

How the data were processed

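Total RNA, 1 library per genotype, went through ribosomal depletion, a stranded library kit with 9 PCR cycles and a NextSeq500 run of 75 bp pairs, per the labels' protocols. According to the submitters' processing notes, which assign no roles, the build was mm9 and the tools were STAR 2.5.3a, featureCounts, edgeR, Picard 1.96, cutadapt and Trim Galore. The sources used here do not say whether counting used strand. The deposited raw counts are whole reads per gene, per the file headers. The authors' CPM is a normalised signal, the deposited counts divided by effective library sizes of 39696495 and 47880724 reads. The authors also deposited a log2 ratio and a fold, both recomputed from CPM with 0.001 added and otherwise unused. Every gene had a CPM of at least 1 in 1 library.

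Groups came from the genotype label. No test was run, since 1 library per group gives no spread between mice. Intervals at 95% cover counting error only: exact Poisson for levels, Clopper-Pearson on the conditional binomial for ratios of CPM, and exact conditional for ratios of ratios. The members and lists were chosen with earlier results of these data known. Members are named in full, with the partners, ligands and regulators, the 4 largest differences of each dendritic list, the 2 most abundant genes of each other list and the fixed marker genes. Of the other lists' most abundant genes, most are given by count only. Other genes named were chosen after their values were seen. Sequences are RefSeq's, matched by Entrez number for 5 of the 6 genes. Python 3.11.15, scipy 1.17.1 and pandas 2.3.3 were used, and the steps were tested on simulated counts.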

Additional observations from a re-analysis of the deposited data

How the results depend on the processing

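Of the 46 member values computed under alternatives, 7 moved by more than the counting interval. Their sign is no sign of stability, since pseudocounts and filters cannot turn it, the 3 other totals moved every gene downward and centring moved them by 0.0035. The count of genes at least 2-fold lower was 2, and 3 with a pseudocount of 0.1 CPM or with any of the 3 other totals. It was 0 with a pseudocount of 5 CPM, 4 at 1.5-fold and 0 at 4-fold. It was 1 where a gene had to reach 10 CPM in 1 library, so that Cd209a and Cd209d dropped out. The share of all genes at least 2-fold lower moved in the same direction. It was 2.1% in the main setting, 4.61% with a pseudocount of 0.1 CPM and 0.83% with 5 CPM. With plain totals it was 3.43%. Leaving haemoglobin genes and the top 20 by abundance out gave 2.96%, and leaving the listed neutrophil genes out gave 2.86%. The gap of plasmacytoid minus conventional genes was -0.21, from -0.35 without Tcf4 to -0.02 with the fixed marker genes (an alternative chosen after seeing the data), and reversed to 0.070 on the log2 scale when the counts of a class were summed, which gives Tcf4 most of the weight. Relative to the deposited scaling, the median difference of all genes shifted by -0.17 with plain totals. The shift was -0.13 when haemoglobin genes and the top 20 by abundance were left out of those totals. Depth limits Cd209d most, at 41 and 65 counts. No paired analysis was possible because each group has 1 library.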

Other observations

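The relatives of Siglech in the sialic acid binding lectin family lay on both sides of 0, with 4 of the other 7 genes below 0. Cd33, of myeloid cells, had 5879 counts in the P95H library against 3541 in the WT library (ratio 2.00, 1.92 to 2.09), and Siglece, of neutrophils and monocytes, 3199 against 1992 (1.94, 1.83 to 2.05). Siglec1, of macrophages, was at 172 against 151 (1.37, 1.10 to 1.72). On the lower side, Cd22, of B cells, had 376 against 1711 (0.265, 0.236 to 0.297) and Siglecg, also of B cells, 727 against 1630 (0.538, 0.492 to 0.587). Siglecf, of eosinophils, had 1192 against 1763 (0.816, 0.757 to 0.878), and Mag, known from myelin, 89 against 190 (0.565, 0.434 to 0.730). Of the 8 family genes analysed, 2 (Cd22 and Siglech) were called lower and 0 higher, past 2-fold, and the median difference was -0.45. Siglech relative to Cd33 gave a ratio of ratios of 0.211 (0.187 to 0.238).

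Neighbours in the RefSeq gene order were taken among the measured genes only, so genes that were not measured can lie between them. Beside Cd209a in that order stands Fcer2a, the low-affinity IgE receptor gene of B cells, which had 132 counts against 993 and a difference of -2.33. Between Cd209a and Cd209d stands Rprl3, a ribonuclease P RNA-like gene, with 1 count in the P95H library against 5230 in the WT library, a difference of -6.75. Rprl3 was under 1 CPM in P95H, so its direction was fixed by the 1 CPM cut. On the other side of Cd209d stands Cd209f, at 51 against 17, with its direction fixed by the 1 CPM cut. These 3 neighbours were chosen after their values were seen.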
